A study of Rattus norvegicus with 6 samples.

Results

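The fragments described here are the 5' pieces of the nuclear lysine tRNAs, Lys-CTT and Lys-TTT, in small RNA libraries of rat muscle. A member is a distinct sequence that matches a mature lysine tRNA exactly, starts at position 1, 2 or 3, and aligns to no mature tRNA of another amino acid. There were 151 such sequences among 77567 distinct tRNA-aligned sequences, and they held 241370 of 6277611 reads. The study compared 3 control and 3 experimental libraries from muscle of Lewis rats aged 6 to 8 weeks, a strain and age that the labels give for both groups. The series title concerns acute rejection after vascularized composite allotransplantation, the transplantation of a part such as a limb, and the labels used here do not say how the experimental animals were treated. A skin phenotype, normal or UV damage, is also attached to these muscle samples, and the groups were taken from the titles alone. Whether libraries of 1 group stem from different animals is not stated, and each p-value reflects only how these libraries vary, which may be technical variation. In such bulk samples a smaller number of cells of a type and less RNA in each cell cannot be told apart, and every share is relative to the other tRNA reads of its library. The muscle label could not be checked, since the files used here hold tRNA reads alone. The control libraries held 316990 to 740627 tRNA-aligned reads and the experimental libraries 876494 to 1927269, so rare fragments were measured more closely in the experimental group.

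Lysine tRNAs carry lysine to the ribosome and read the codons AAG and AAA with the anticodons CTT and TTT. Cells cut mature tRNAs in the anticodon loop, often with the ribonuclease angiogenin when they are under stress, and the 5' piece is then called a tiRNA-5. Shorter 5' pieces are called tRF-5. Pieces of the tiRNA-5 kind have been reported to slow translation and to appear in blood.

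The files list 6 mature lysine tRNAs, each standing for 1 or more identical gene copies whose reads cannot be told apart. Lys-CTT-1 stands for 8 listed copies, the first on chromosome 2 from 198567936 to 198568008. Lys-CTT-2 is on chromosome 6 from 93417550 to 93417622, and Lys-CTT-3 on chromosome 9 from 10681363 to 10681435. Lys-TTT-1 stands for 4 copies, the first on chromosome 1 from 228439662 to 228439734. Lys-TTT-2 is on chromosome 7 from 140457843 to 140457915, and Lys-TTT-3 on chromosome 17 from 44687115 to 44687187. The only genome build named in the sources used here was mm9, a mouse build, and the build behind these positions was not stated. In each of the 6 the anticodon occupies positions 34 to 36, in a loop that spans positions 32 to 38. Their first 42 bases, which hold every member, are shown 5' to 3' as DNA letters because these few differences decide which tRNA a read is assigned to. Capitals mark bases that differ from Lys-CTT-1.
Lys-CTT-1: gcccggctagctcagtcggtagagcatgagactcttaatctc
Lys-CTT-2: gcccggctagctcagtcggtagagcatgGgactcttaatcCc
Lys-CTT-3: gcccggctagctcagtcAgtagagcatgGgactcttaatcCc
Lys-TTT-1: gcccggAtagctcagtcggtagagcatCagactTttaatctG
Lys-TTT-2: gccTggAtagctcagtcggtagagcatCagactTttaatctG
Lys-TTT-3: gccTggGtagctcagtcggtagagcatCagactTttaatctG

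Lys-CTT-1 and Lys-CTT-2 differ over this stretch by A29G and T41C, with the Lys-CTT-1 base first and positions counted from the 5' end of the mature tRNA. Positions 29 and 41 face each other in the anticodon stem, so that an A with T pair in Lys-CTT-1 is a G with C pair in Lys-CTT-2. A fragment that ends before position 29 cannot be assigned to either of them. Lys-TTT-1 differs from Lys-CTT-1 by C7A, G28C, C34T and C42G, of which G28C and C42G exchange the partners of another stem pair.

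Nearly all lysine 5' reads came from 3 tRNAs. Lys-CTT-1 gave 71.3% of them in 32 members, Lys-CTT-2 gave 26.1% in 25 members and Lys-TTT-1 gave 2.36% in 59 members. These shares pool the libraries, and experimental replicate 2 alone held 139458 of the reads. Within single libraries Lys-CTT-1 held 86.6% to 88.1% of lysine 5' reads among controls and 79.2%, 63.9% and 81.5% among experimental libraries. Lys-CTT-2 held 6.81%, 8.85% and 6.39% among controls and 17.9%, 34.02% and 15.4% among experimental libraries, so its pooled 26.1% lies above 5 of the 6 libraries. The 15 members shared by Lys-CTT-1 and Lys-CTT-2 held 516 reads, Lys-CTT-3 held 131 reads, Lys-TTT-2 held 10 and Lys-TTT-3 held 4. The most abundant Lys-CTT-3 member, positions 1 to 34, was read 1, 1 and 0 times among controls and 5, 72 and 12 times among experimental libraries. No Lys-TTT-2 member had more than 2 reads in all, a number reached by positions 1 to 17 and 1 to 34, and each of the 4 Lys-TTT-3 members had 1 read. The members were 14 to 40 nt long, and 72 of the 151 had fewer than 10 reads over all libraries, 199 reads together. No member was listed under a tRNA precursor. The precursors of these tRNAs contain the mature sequence, so this absence follows from how reads were assigned. It cannot show whether precursors gave any of the reads.

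Lysine 5' fragments took a larger share of tRNA-aligned reads in each experimental library than in any control library. The share was 0.828%, 0.885% and 0.602% in the control libraries and 3.77%, 7.24% and 2.99% in the experimental ones, with experimental replicate 2 well above the rest. Wilson 95% intervals, which cover counting error only, ran from 0.576% to 0.629% in the smallest library and from 7.20% to 7.27% in the largest. The means were 0.772% ± 0.150 (SD, n = 3) and 4.67% ± 2.26 (SD, n = 3), a 6.05-fold ratio that was 4.38-fold without experimental replicate 2. The groups did not overlap (two-sided exact permutation p = 0.1, the smallest that 3 against 3 libraries can give, and 0.133 after adjustment over 8 planned values), so the difference could not pass a threshold of 0.05.

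The 3 main tRNAs differed in how far their shares lay apart between groups. Lys-CTT-1 took 0.721%, 0.766% and 0.530% of tRNA-aligned reads among controls and 2.99%, 4.62% and 2.44% among experimental libraries, a 4.98-fold ratio of the means. Lys-CTT-2 took 0.0564%, 0.0783% and 0.0385% among controls and 0.675%, 2.46% and 0.461% among experimental libraries. Its ratio of means was 20.8-fold, and 9.84-fold without experimental replicate 2. Lys-TTT-1 took 0.0482%, 0.0362% and 0.0287% among controls and 0.0848%, 0.144% and 0.0833% among experimental libraries, a 2.76-fold ratio. For each of the 3 tRNAs the groups did not overlap (exact permutation p = 0.1, adjusted p = 0.2 over 14 values added after the data were seen).

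**Figure D1:**
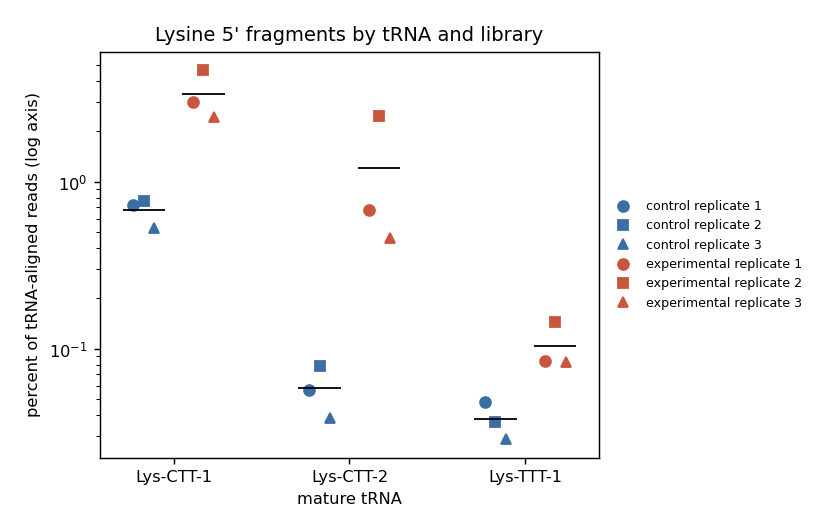
Each point is the percent of tRNA-aligned reads (log axis) that were 5' fragments of 1 lysine tRNA in 1 library, with a horizontal line at the mean of each group of 3. The experimental points lie above the control points for every tRNA, and the gap is widest for Lys-CTT-2, with means of 0.0577% and 1.20%.

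The balance between the tRNAs was compared next. Lys-TTT held 5.84%, 4.12% and 4.82% of lysine 5' reads among controls and 2.26%, 1.99% and 2.79% among experimental libraries, without overlap (exact permutation p = 0.1, adjusted p = 0.133). The log2 ratio of Lys-CTT-2 to Lys-CTT-1 reads was -3.68, -3.29 and -3.78 among controls and -2.14, -0.909 and -2.40 among experimental libraries. That difference of 1.77 on the log2 scale was computed after the values had been seen (exact permutation p = 0.1, adjusted p = 0.2), and it was 1.31 without experimental replicate 2.

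The fragments ended in or just before the anticodon, with 98.6% of the reads ending at positions 31 to 36. The main fragments of the 3 tRNAs follow, to show where they stop, with capitals for bases in the anticodon loop.
Lys-CTT-1 1 to 33: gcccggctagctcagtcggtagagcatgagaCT
Lys-CTT-1 1 to 34: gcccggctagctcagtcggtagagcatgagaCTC
Lys-CTT-2 1 to 34: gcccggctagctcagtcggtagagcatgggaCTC
Lys-CTT-2 1 to 35: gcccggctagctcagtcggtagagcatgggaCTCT
Lys-TTT-1 1 to 33: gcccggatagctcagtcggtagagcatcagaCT

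Each tRNA had its own pattern of ends. In Lys-CTT-1, 32.03% ± 1.27 (SD, n = 3) of control reads ended at position 33 and 26.5% ± 10.3 at position 34, against 33.49% ± 7.47 and 46.9% ± 14.98 of experimental reads. In Lys-CTT-2 only 8.16% ± 2.17 of control and 5.27% ± 2.84 of experimental reads ended at position 33, while 50.1% ± 12.96 and 63.9% ± 12.7 ended at 34 and 28.3% ± 7.52 and 24.4% ± 8.48 ended at 35. In Lys-TTT-1 position 33 led in all 6 libraries, with 41.9% ± 7.29 of control and 38.1% ± 3.12 of experimental reads. Ends at position 34 or later made up 27.1% to 66.9% of Lys-CTT-1 reads over the 6 libraries, 84.4% to 96.8% of Lys-CTT-2 reads and 19.2% to 51.6% of Lys-TTT-1 reads.

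**Figure D2:**
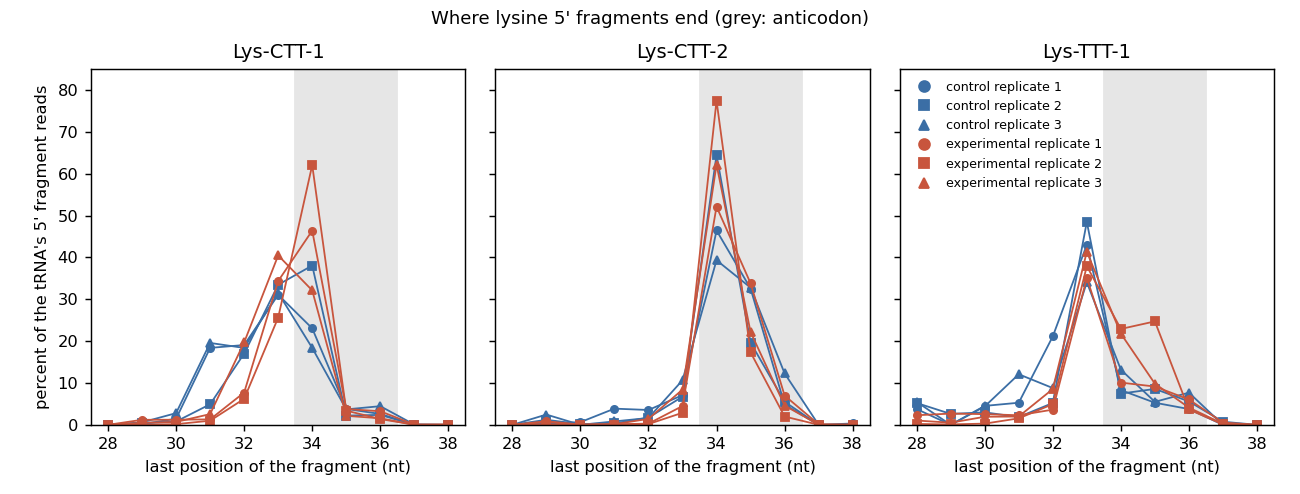
Lines give, for each library, the percent of a tRNA's 5' fragment reads (y axis) by the last position of the fragment in nt (x axis), with the anticodon shaded. Lys-CTT-2 peaks at position 34 in all 6 libraries and Lys-TTT-1 at position 33, while the peak of Lys-CTT-1 lies at 33 or 34 depending on the library.

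The ratio of Lys-CTT-2 to Lys-CTT-1 reads depended on where the fragments ended. In the control libraries it averaged 0.0105 at position 32, 0.0210 at 33, 0.162 at 34, 0.742 at 35 and 0.194 at 36. In the experimental libraries it averaged 0.0126 at position 32, 0.0430 at 33, 0.428 at 34, 2.23 at 35 and 0.601 at 36. From position 33 to 36 each experimental library lay above each control library, so the higher share of Lys-CTT-2 was present at each of these 4 ends, while at 31 and 32 the groups overlapped. Positions 34, 35 and 36 took a larger part of Lys-CTT-2 reads than of Lys-CTT-1 reads in 6 of 6 libraries. At position 31 it averaged 0.00889 among controls and 0.0213 among experimental libraries. A Lys-CTT-1 read with a sequencing error to G at position 29 would be counted as Lys-CTT-2. Such reads were not measured separately, and the ratio at position 31 reached 0.0284 in experimental replicate 2, as large as some of the ratios at 33 (0.0179 to 0.0600). In the smallest library Lys-CTT-2 had 13, 48, 40 and 15 reads at positions 33 to 36, but only 1 at position 31 and 2 at 32. Over all libraries it had 62 reads at 31 and 249 at 32, so the ratios and the overlap there rest on few reads.

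**Figure D3:**
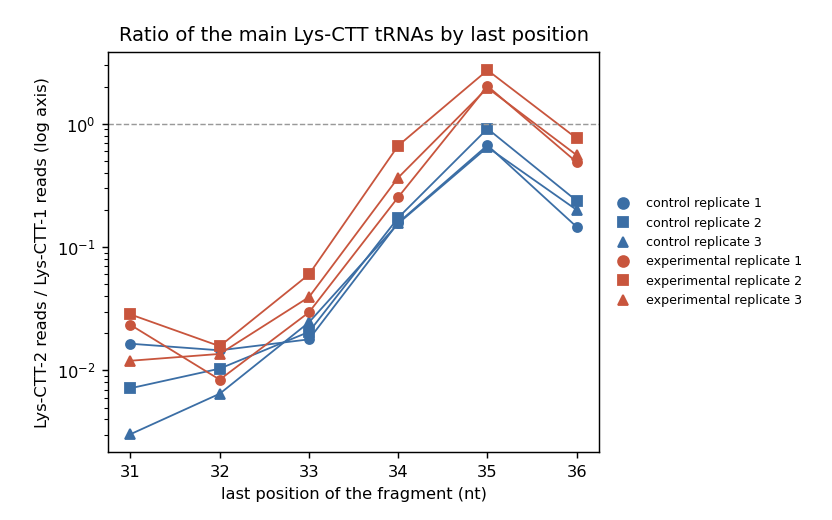
Points give the number of Lys-CTT-2 reads divided by the number of Lys-CTT-1 reads (log axis) among 5' fragments with the same last position in nt (x axis), 1 line per library. The ratio climbs from about 0.01 at position 32 to 0.645 or more at position 35, where the 3 experimental libraries stand at 1.95 to 2.72 and the 3 control libraries below 1.

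Taken over all members, the mean last position was 32.8, 33.2 and 32.7 among controls and 33.6, 33.8 and 33.3 among experimental libraries. The groups did not overlap, but control replicate 2 and experimental replicate 3 lay next to each other (exact permutation p = 0.1, adjusted p = 0.133). The difference was 0.605 nt for all members, 0.497 nt within Lys-CTT-1, 0.0773 nt within Lys-CTT-2 and 0.0607 nt within Lys-TTT-1, and within each of these tRNAs the groups overlapped (exact permutation p = 0.2, 0.5 and 1). Ends at position 34 or later made up 32.9%, 46.5% and 30.6% of lysine 5' reads among controls and 60.4%, 76.8% and 44.2% among experimental libraries, and the groups overlapped (exact permutation p = 0.2). Ends at position 31 took 16.6%, 4.36% and 17.9% among controls and 1.11%, 0.679% and 2.17% among experimental libraries, without overlap, and were not tested. Summed together, both the longer and the shorter members took a larger share of tRNA-aligned reads in the experimental group. This did not hold for every single member. Lys-CTT-1 positions 1 to 31 took 0.123%, 0.0363% and 0.101% among controls and 0.0329%, 0.0440% and 0.0599% among experimental libraries, with overlap. Members ending at 33 or before took 0.482% ± 0.0694 and 1.61% ± 0.106, a 3.35-fold ratio, and those ending at 34 or later took 0.289% ± 0.115 and 3.05% ± 2.22, a 10.5-fold ratio that was 6.22-fold without experimental replicate 2.

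The fragment types given in the table depend on both ends. Of members starting at position 1, those ending at 34 were typed tiRNA-5 (132154 reads), those ending at 29 to 32 were typed tRF-5c, and those ending at 33, 35 or 36 were typed Other. Members ending at 29 to 36 that start at position 2 or 3 were typed Other. The type tiRNA-5 thus held 27.2% of lysine 5' reads on average among controls and 49.6% among experimental libraries, while 41.9% and 38.7% were typed Other, most of them with an end at 33, 35 or 36.

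Most lysine 5' reads began at the first base of the tRNA. The share starting at position 1 was 96.0%, 98.8% and 96.8% among controls and 98.7%, 99.6% and 99.2% among experimental libraries, and the groups overlapped (exact permutation p = 0.2). Members starting at position 2 held 223 reads and those starting at 3 held 1517. Just outside the rule, exact matches starting at position 4 held 1264 reads and those starting at 5 held 95, and 9 short sequences shared with Gln-CTG held 99 reads.

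Single members were compared in 1 fit over all tRNA-aligned sequences that passed a filter on low counts, with limma voom, which models log2 CPM, read counts scaled to library size, with weights for their precision. Only 28 of the 151 members passed the filter, but these held 99.2% of the member reads. Of the 28, 11 were called higher and 0 lower at an adjusted p under 0.05, where 18.7% of all 2226 fragments tested were called higher and 7.64% lower. At an unadjusted p under 0.05 limma voom gave 15 higher and 0 lower. The median log2 fold change of the 28 was 1.96, and 0.21 over all fragments tested. In 19 of the 28 all experimental libraries lay above all controls, as they did in 26.1% of all fragments tested. In a fit restricted to exact matches 11 of 28 were called higher, against 9.74% of 1037 fragments. A member that was high in the experimental libraries alone could pass the filter through them, so these counts describe the tested members only. Limma shared 1 spread over all fragments in this fit. With each fragment's own spread 0 of the 28 were called (limma voom adjusted p from 0.0741 to 0.954), 15 had an unadjusted p under 0.05, and 0.674% of all fragments were called higher.

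Among the fragments that end at the first anticodon base, Lys-CTT-1 positions 1 to 34 stood at 1762, 2806 and 848 normalised CPM in controls, and in experimental libraries at 10476, 53165 and 8778 CPM. Experimental replicate 2 lay far above the others, and the lowest experimental value was above the highest control value. The gap between experimental libraries depends on the scaling factors, which were 0.562 for experimental replicate 2 and 1.46 for experimental replicate 1. As unscaled shares of tRNA-aligned reads the same fragment took 0.165%, 0.292% and 0.0956% among controls and 1.38%, 2.86% and 0.782% among experimental libraries. The fragment rose, with a log2 difference of 3.40 ± 0.88 (SE) and a limma voom adjusted p of 0.00138, but leaving out control replicate 3 ended the call (2.51, adjusted p = 0.098). Lys-CTT-2 positions 1 to 34 stood at 273, 486 and 131 CPM in controls, and in experimental libraries at 2664, 35366 and 3211 CPM. Its rise was 4.67 ± 0.88 in log2 units (limma voom adjusted p = 4.59e-06), a change that was 3.55 without experimental replicate 2. Its unscaled shares were 0.0256%, 0.0505% and 0.0148% among controls and 0.351%, 1.90% and 0.286% among experimental libraries. Lys-TTT-1 positions 1 to 34 stood at 42.6, 26.0 and 33.6 CPM in controls, and in experimental libraries at 64.0, 612 and 203 CPM. Its rise of 2.55 ± 0.91 (limma voom adjusted p = 0.0231) lost its call when control replicate 2 or 3 or experimental replicate 2 or 3 was left out, and with library totals in place of scaling factors (adjusted p from 0.0604 to 0.17).

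Of the members ending 1 base earlier, Lys-CTT-1 positions 1 to 33 stood at 2331, 2453 and 1463 CPM in controls, and in experimental libraries at 7720, 21873 and 11011 CPM. Unscaled, its experimental shares lay close together, at 1.02%, 1.18% and 0.981%, against 0.165% to 0.255% among controls. Its rise was 2.60 ± 0.88 in log2 units (limma voom adjusted p = 0.017), and only without control replicate 1 or experimental replicate 1 was it still called with 1 library left out (adjusted p from 0.0523 to 0.203 in the others). Lys-CTT-2 positions 1 to 33, a minor end of that tRNA, stood at 29.05, 42.9 and 22.4 CPM in controls, and in experimental libraries at 189, 1249 and 399 CPM and rose by 3.84 (adjusted p = 0.000417). Lys-TTT-1 positions 1 to 33, the main fragment of its tRNA, stood at 209, 168 and 81.1 CPM in controls, and in experimental libraries at 223, 1001 and 382 CPM. It was not called (log2 fold change 1.62, limma voom adjusted p = 0.16), although the groups did not overlap.

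Members that end within the anticodon were also among the calls. Lys-CTT-2 positions 1 to 35 stood at 194, 147 and 106 CPM in controls, and in experimental libraries at 1725, 7901 and 1143 CPM, a log2 fold change of 4.10 (adjusted p = 9.79e-05). Lys-CTT-2 positions 1 to 36 rose from 36.2 ± 6.19 to 499.7 ± 355 CPM, a log2 difference of 3.53. The 4 named Lys-CTT-2 members, ending at 33 to 36, were called in each fit that left out 1 library. Lys-CTT-1 positions 1 to 35 rose from 204 ± 71.4 to 1446 ± 1265 CPM, by 2.52, and Lys-TTT-1 positions 1 to 35 from 23.7 ± 8.49 to 270 ± 338 CPM, by 2.66. The calls of these last 2 were lost without control replicate 3 (1.98 and 1.96) or without experimental replicate 2 (1.90 and 1.68), that of Lys-CTT-1 also without control replicate 2 (2.36) and that of Lys-TTT-1 with library totals (2.44). Lys-CTT-1 positions 1 to 36 stood at 193 ± 16.2 and 775 ± 381 CPM and did not pass (1.89, limma voom adjusted p = 0.0982), except in the fit with no filter (adjusted p = 0.0413).

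The shorter members of Lys-CTT-1 did not follow 1 pattern. Positions 1 to 31 stood at 1307, 350 and 892 CPM in controls, and in experimental libraries at 249, 817 and 672 CPM, with overlap and a log2 fold change of -0.53 (limma voom adjusted p = 0.696). Positions 1 to 32 stood at 1385, 1241 and 848 CPM in controls, and in experimental libraries at 1717, 5292 and 5367 CPM and were not called (1.69, adjusted p = 0.143), except without experimental replicate 1 (2.02, adjusted p = 0.0281). Positions 1 to 29 rose from 18.8 ± 9.59 to 148 ± 103 CPM (2.78, adjusted p = 0.0163), and there experimental replicate 1 was highest, with 256 CPM. As unscaled shares the groups overlapped, with 0.00280% in experimental replicate 2 and 0.00284% in control replicate 3. That call was lost when replicate 1 or 3 of either group was left out, and with library totals. Positions 1 to 28, shared by Lys-CTT-1 and Lys-CTT-2, stood at 19.0 ± 4.98 and 93.4 ± 35.2 CPM (2.18, adjusted p = 0.0684, and 0.0213 with no filter).

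**Figure D4:**
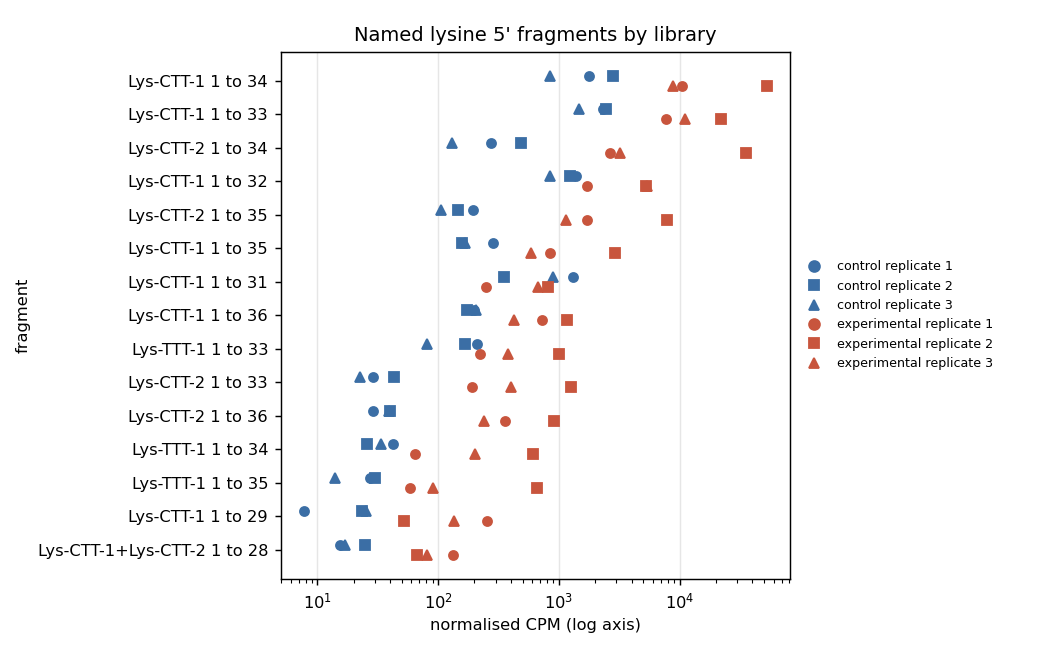
Points give the normalised CPM (log axis) of each named and tested member in each library, with members ordered by mean CPM. On this scale, which includes the scaling factors, experimental replicate 2 is the highest library for all of the members ending at positions 33 to 36, and Lys-CTT-1 positions 1 to 31 is the only member shown whose groups overlap.

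Other fragments of the same tRNAs overlapped between the groups. Among exact reads of mature lysine tRNAs, the 5' members made up 60.9%, 83.7% and 69.6% among controls and 88.9%, 97.9% and 95.1% among experimental libraries, without overlap (exact permutation p = 0.1, adjusted p = 0.133). The other fragments took 0.531%, 0.173% and 0.262% of tRNA-aligned reads among controls and 0.473%, 0.159% and 0.155% among experimental libraries, and the groups overlapped (exact permutation p = 0.5). Most of these were internal fragments, at 0.288% ± 0.170 and 0.220% ± 0.164. Fragments reaching the CCA end, the 3' tail to which the amino acid is attached, took 0.0169% ± 0.0120 and 0.00755% ± 0.00406, with overlap. Fragments starting at positions 4 to 10 took 0.0172% ± 0.00534 and 0.0346% ± 0.0157, with overlap.

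Sequences with 1 mismatch, which otherwise met the rule, were a larger part of the lysine 5' reads in the experimental libraries. They made up 18.6%, 19.5% and 17.04% of exact and mismatched reads together among controls and 25.4%, 26.9% and 25.3% among experimental libraries, without overlap (exact permutation p = 0.1, adjusted p = 0.2, computed after the data were seen). The mismatch lay on the last base in 44.3% to 55.8% of such reads among controls and 56.2% to 57.9% among experimental libraries. The most frequent were C34T in Lys-CTT-1 with 9294 reads, T33C in Lys-CTT-1 with 6735 and C34T in Lys-CTT-2 with 5579, each on the last base. A fragment ending at 33 with 1 base added after cutting would be read as such a mismatch at 34, unless the added base equals that of the tRNA. Last positions were read from exact matches only, which leaves out the mismatched reads but not those with an equal base. How many exact ends hold an added base was not tested. With the mismatched sequences included, the difference in share between the groups was 5.37 percentage points, against 3.89 for exact matches.

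The lysine share was also compared with that of other tRNA families. Relative to glycine 5' fragments, the most abundant family here, the log2 ratio was -6.17, -6.02 and -6.45 among controls and -3.61, -2.86 and -4.23 among experimental libraries, a difference of 2.64 without overlap. Glycine itself took 59.4%, 57.5% and 52.5% of tRNA-aligned reads among controls and 46.0%, 52.4% and 56.3% among experimental libraries. Relative to glutamic acid 5' fragments, the log2 ratio was -1.91, -1.32 and -2.24 among controls and -0.862, 0.953 and 0.294 among experimental libraries, a difference of 1.95 without overlap. Both ratios had the smallest possible exact permutation p (0.1, adjusted p = 0.133), and they need no scaling factor.

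The 5' fragments were also summed by anticodon, with sequences on more than 1 anticodon left out, which removes the main fragments shared by Gly-GCC and Gly-CCC. By mean share of reads Lys-CTT ranked 3 in the control, after Gly-GCC and Glu-CTC, and ranked 2 in the experimental libraries. Glu-CTC, next to it in both orders, took 2.72%, 2.15% and 2.71% in the control, above each Lys-CTT value (0.573% to 0.849%), and 6.30%, 3.45% and 2.34% in the experimental libraries, overlapping the range of Lys-CTT (2.91% to 7.09%). Below it in the control, His-GTG took 0.294% to 0.572%, just under the lowest Lys-CTT value. Lys-TTT ranked 7 in both groups, with 0.0290% to 0.0484% among controls and 0.0834% to 0.144% among experimental libraries. In the control it lay below Gly-CCC (0.157% to 0.168%) and above Asp-GTC (0.00945% to 0.0174%), without overlap. In the experimental group its range overlapped those of both neighbours, Glu-TTC (0.0975% to 0.545%) and Val-CAC (0.0195% to 0.116%).

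Of 21 anticodon sums tested, 4 were called higher and 1 lower by limma voom with scaling factors computed from these sums, which is 19% and 4.76%. Lys-CTT was 1 of the 4, with a log2 difference of 1.10 ± 0.33 (limma voom adjusted p = 0.0279). The others were Val-CAC (3.13), Val-AAC (2.31) and Arg-CCG (3.28), while His-GTG was lower (-1.66). In the control libraries Val-CAC had 13, 18 and 4 reads, Val-AAC 3, 2 and 1, and Arg-CCG 0, 2 and 0. Lys-CTT had 1816 to 6287 there, so the larger fold changes of the others rest on far fewer control reads. Lys-TTT stood at -0.02 (limma voom adjusted p = 0.949). Relative to library totals 14 were called higher (66.7%) and 0 lower, His-GTG being the only sum below 0 (-0.23, adjusted p = 0.645), with Lys-CTT at 2.55 (adjusted p = 3.77e-05) and Lys-TTT at 1.42 (adjusted p = 0.0183). The median of all 21 was 0.45 with the factors and 1.86 with library totals, so Lys-CTT lay above the median in both and Lys-TTT below it in both. With 1 library left out Lys-CTT was not called in any of the 6 fits (limma voom adjusted p from 0.0683 to 0.846), and without control replicate 1 its log2 fold change was 0.37.

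Of 10 other anticodons whose 5' pieces are often reported as cut under stress, 8 were tested. Val-AAC and Val-CAC, which had few control reads, were called higher and His-GTG lower. The median log2 fold change of the 8 was -0.34, below the 0.45 of all sums. With library totals Gly-CCC joined the 2 valine anticodons as higher and 0 were lower, with a median of 1.08. Under that scaling 66.7% of all 21 sums were called higher and their median was 1.86. The sums most like lysine over the 6 libraries, by root mean square distance between centred log2 shares among 11 anticodons compared, were Val-TAC (0.619), Gly-CCC (0.655) and Thr-TGT (0.715). Their shares of tRNA-aligned reads were smaller, with control means of 0.00164%, 0.165% and 0.00208%, and experimental means of 0.0107%, 0.413% and 0.00737%. In the control libraries Val-TAC had 5, 11 and 8 reads and Thr-TGT had 11, 8 and 10. The comparison required a minimum mean number of reads, which Val-TAC and Thr-TGT met through the experimental libraries. The likeness of Val-TAC and Thr-TGT to lysine is thus partly built in. Gly-CCC had 925, 1246 and 499 reads in the control libraries and did not depend on the experimental libraries for this.

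**Figure D5:**
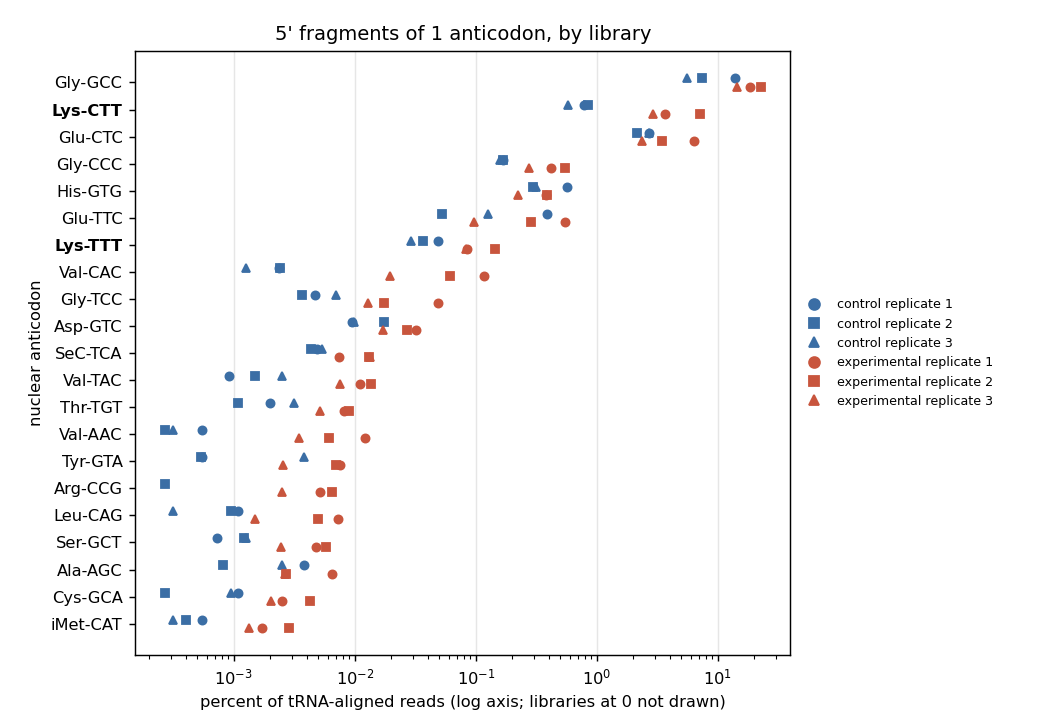
Points give the percent of tRNA-aligned reads (log axis) in 5' fragments of a single nuclear anticodon for each library, for the 21 anticodons tested, ordered by the experimental mean. Lys-CTT stands at 2.91% to 7.09% in the experimental libraries, all above its control values of 0.573% to 0.849%.

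More distinct members were seen in the deeper libraries, with 70, 63 and 54 among controls and 111, 116 and 108 in the experimental group. At an equal depth of 1908 lysine 5' reads, the number in the smallest library, 44.4 to 54 members would be expected in a control library and 27.3 to 47.4 in an experimental one. These ranges overlapped, and experimental replicate 2, with 66.5% of its lysine 5' reads ending at position 34, had the fewest.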

How the data were processed

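Small RNA libraries of total RNA were read as tRNA fragments. The deposited table holds, per the file headers, raw read counts for each distinct sequence and library. Every alignment to one of 225 mature tRNAs (CCA added) or 379 precursors has its own line with a fragment type, and none has more than 1 mismatch. The aligner was not given in the sources used here, and the submitters' processing notes name mm9, a mouse build, for samples labelled rat. Whether RNA ends were repaired before ligation is not stated in the labels, and fragments with blocked ends or with bases that stop reverse transcription would be counted less.

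Each sequence was counted once. Counts were checked against read names in the separate library files and were equal for all 151 members. The members, lists and tests were chosen with earlier results of these data known. Because of text lines between the counts (1812) the table was not classed as plain counts, and limma 3.58.1 voom in R 4.3.3 was chosen in place of a count model. The counts themselves were read as whole numbers, so a count model would have been possible, and none was run. A sequence was tested if it had 15 counts in all and if at least 3 libraries reached the CPM that 10 counts make in a median library. Libraries were scaled by the trimmed mean of M values (trims 0.3 and 0.05), and factors for fragments ranged from 0.562 (experimental replicate 2) to 1.46 (experimental replicate 1). Normalised CPM are relative to kept reads times that factor, and a low factor raises them. P-values were adjusted by Benjamini-Hochberg over all features tested, with a threshold of 0.05. Shares, ratios and mean ends were compared by two-sided exact permutation tests over libraries (SciPy 1.17.1). The voom procedure was tested on simulated data with a fixed spread that was not estimated from these libraries. That test does not show how the fit performs at the spread of these libraries.

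Named members were the 8 most abundant, the 3 most abundant of Lys-TTT, the most abundant of each tRNA or set of tRNAs (ties occurred for Lys-TTT-2 and Lys-TTT-3), and the 6 largest rises and falls that were called, reached 50 CPM and did not overlap, at most 1 for each tRNA and last position. No fall met this. The alternatives were other scaling, no filter, limma trend, each fragment's own spread, a replicate block, leaving out each library, exact matches only, mismatches included and starts at position 1 only.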

Additional observations from a re-analysis of the deposited data

How the results depend on the processing

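The 8 planned shares, ratios and mean ends, and the ratio of Lys-CTT-2 to Lys-CTT-1, kept their direction under all alternatives run. The replicate block could not change their direction, since it uses the same differences. With 1 library left out the difference in lysine 5' share lay between 2.61 and 4.73 percentage points, that in mean last position between 0.468 and 0.750 nt, and the log2 ratio to glycine between 2.29 and 2.98. The smallest exact p of these designs is 0.1, so no threshold was within reach. Lysine members called higher numbered 11 of 28, where 18.7% of all fragments tested were. With library totals there were 7 of 28 (10.5% of all fragments) and with no filter 32 of 151 (2.72%). With each fragment's own spread there were 0 of 28 (0.674%). With 1 library left out 4 to 11 were called of 28 to 32 tested, where 6.96% to 21.2% of all fragments were. There were 4 without control replicate 3, and 7 without control replicate 2, experimental replicate 2 or experimental replicate 3. The named members that were tested kept their direction in 195 of 195 refits, and 31 of these lost a call. The refits with own spread keep the same fold changes by construction, and all refits share libraries. Some members were also named for their rise in these same data, so this count is not independent support for their direction. All fragments called higher and lower numbered 416 and 170 of 2226. Of the same 2226 there were 234 higher with library totals, and 15 and 8 with own spread. With no filter there were 2109 and 993 of 77567, and with exact matches only 101 and 91 of 1037. With 1 library left out 206 to 668 were higher and 109 to 283 lower, of 2387 to 3149 tested. Anticodon sums called higher and lower numbered 4 and 1. There were 14 and 0 with library totals, 0 and 0 with own spread (6 with an unadjusted p under 0.05), 2 lower with median-of-ratios factors, 11 lower with no filter, 2 higher with mismatches included, and 0 to 3 higher and 1 lower with 1 library left out. The Lys-CTT sum lost its call at 0.85 with median-of-ratios factors, at 1.10 with own spread (limma voom adjusted p = 0.107) and at 0.66 with mismatches included, and lay between 0.37 and 1.24 with 1 library left out. The Lys-TTT sum turned from -0.02 to 1.42 with library totals and to 0.0075 with limma trend, and lay between -0.61 and 0.19 with 1 library left out. The cause of these changes was not tested.

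Whether the replicate numbers in the titles pair the libraries is not stated in the labels. The correlations of same-numbered libraries were -0.31, -0.06 and 0.14, and those of other pairs ran from -0.42 to 0.38. With 3 libraries in each group these values cannot decide whether the libraries are paired. With the replicate block 11 lysine members were called higher and 0 lower, all fragments gave 367 and 141 calls, the anticodon sums gave 4 and 1, and Lys-CTT stood at 1.11 and Lys-TTT at -0.01. Sign flips over pairs change only the p-value (sign-flip exact p = 0.25 each, the smallest possible). The mean differences are the same by construction, at 3.89, 0.605, 23.8, 2.64, 1.95, -2.58, 22.5, 1.96 and 1.77. Depth limits the control libraries most, where control replicate 3 held 1908 lysine 5' reads.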
